A study of Mus musculus with 34 samples.

Results

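The genes described here are 10 members of the mouse pluripotency network, listed by name: Sox2, Klf4, Klf2, Sall4, Utf1, Lin28, Zfp42, Tdgf1, Prdm14 and Tcfap2c. DNA methylation at their CpG islands was measured with an antibody against methylated cytosine, which enriches methylated DNA fragments before they are hybridised to a CpG island array beside the input DNA. Probes that carry a member's gene name were joined into islands wherever neighbouring probes lay at most 500 bases apart, and an island needed at least 3 probes. This gave 12 islands of 7 genes among 13614 islands that carry 12213 gene names. They hold 131 of the members' 133 probes, and the other 2 probes, at Utf1, form a run that is too short. No probe carries the name Lin28, Zfp42 or Tdgf1, so these 3 genes are not analysed here.

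The 34 arrays fall into groups by their labels. Adult tissue is 16 arrays from C57Bl/6 mice aged 3 months, with 2 arrays each of colon, pancreas, brain, kidney, liver, lung, muscle and spleen. Embryos are 5 arrays, at 8.5, 9.5, 10.5, 11.5 and 12.5 days. Undifferentiated embryonic stem (ES) cells are 3 arrays, of the lines EB5, J1 and TT2. Differentiated ES cells are 5 arrays: embryoid bodies grown from TT2 in hanging drops, cells treated with retinoic acid, endoderm (2 arrays) and mesoderm. The endoderm and mesoderm came from a line derived from EB5 that reports Gsc by GFP and Sox17 by huCD25. They were differentiated with Activin A in serum-free medium and sorted. The 2 teratoma arrays are tumours that ES cells formed in NOD-SCID mice. Single arrays cover beta cells sorted from Pdx1-GFP mice and the pancreatic tumour lines Min6 and aTC.

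The labels place the retinoic acid cells in line TT2, as does a figure legend of the study, where its methods name J1. They place the teratomas in J1 where the methods name D3 and C4. Expression was not measured on these arrays, so cell identities were not checked by markers. The J1 array stands apart. Its scanner values correlate with its column of the authors' processed table at r = 0.113 over probes, against 0.894 to 0.991 for the other arrays, and whether this file or column belongs to another sample was not tested. The calls named below in comparisons with undifferentiated cells are given with and without this array, apart from those under other settings. The differentiated group holds different cell types, each on 1 array apart from endoderm, so its spread includes differences between protocols. The arrays lie on 23 slides and were read on 16 days by 4 releases of the software, which overlap only in part with the groups. Embryos share no slide, day or software release with adult tissue, and no slide or day with differentiated cells. Of the embryos only that of 8.5 days shares any of these with arrays of the groups compared with it. With slide, day or release fitted as a block, comparisons with embryos thus rest on it. With slide or day as a block, those of differentiated cells with adult tissue rest on endoderm 2 and embryoid bodies. With slide as a block, those of undifferentiated cells with adult tissue or differentiated cells rest on EB5.

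Sox2 works with Oct4 at the core of a transcription network that keeps ES cells able to form every lineage of the embryo. Klf4, Klf2 and Prdm14 belong to the naive state of that network, and Tcfap2c also acts in germ cells and trophoblast. CpG islands at gene starts mostly lack methylation in all tissues whether or not the gene is active, while CpG-rich stretches inside gene bodies are often methylated. Methylation of a promoter island is associated with stable silencing, as is known for some germline genes.

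The promoters of 4 members are given in sequence. They were taken by gene name and not by island position, and the scored islands also reach into the genes. At Utf1 10 of the island's 11 probes lie inside the gene, outside the sequence given. The 250 bases upstream of the start site are given, from RefSeq on GRCm38.p6, 5′ to 3′ along the gene's strand, with each CpG in capitals since this is the dinucleotide whose methylation the antibody captures. Sox2 (chr3:34649745-34649994, plus strand) holds 27 CpG and Klf4 (chr4:55532476-55532725, minus strand) holds 32. Klf2 (chr8:72318812-72319061, plus strand) holds 29 and Utf1 (chr7:139943606-139943855, plus strand) holds 14.
Sox2: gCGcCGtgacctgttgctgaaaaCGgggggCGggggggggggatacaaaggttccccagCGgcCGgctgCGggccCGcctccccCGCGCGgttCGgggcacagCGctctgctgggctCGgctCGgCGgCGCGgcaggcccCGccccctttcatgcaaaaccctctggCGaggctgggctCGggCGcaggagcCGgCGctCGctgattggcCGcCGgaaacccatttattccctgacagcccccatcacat
Klf4: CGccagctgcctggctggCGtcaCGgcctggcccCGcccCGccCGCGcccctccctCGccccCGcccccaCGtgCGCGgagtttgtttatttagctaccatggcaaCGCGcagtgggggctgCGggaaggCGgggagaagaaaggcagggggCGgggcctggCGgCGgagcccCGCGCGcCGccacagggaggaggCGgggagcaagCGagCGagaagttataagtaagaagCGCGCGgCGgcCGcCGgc
Klf2: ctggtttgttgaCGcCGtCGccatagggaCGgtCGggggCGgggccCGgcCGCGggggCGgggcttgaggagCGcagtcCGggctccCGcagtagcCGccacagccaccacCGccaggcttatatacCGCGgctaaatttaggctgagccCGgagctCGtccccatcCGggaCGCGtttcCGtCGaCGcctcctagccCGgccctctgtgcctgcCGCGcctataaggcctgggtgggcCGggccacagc
Utf1: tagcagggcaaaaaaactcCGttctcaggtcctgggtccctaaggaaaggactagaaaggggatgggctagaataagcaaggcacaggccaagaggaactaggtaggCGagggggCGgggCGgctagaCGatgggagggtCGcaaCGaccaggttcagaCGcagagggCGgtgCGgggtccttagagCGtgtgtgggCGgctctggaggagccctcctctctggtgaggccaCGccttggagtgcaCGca

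Among 32841 promoters of the same length the median is 6 CpG. As many CpG as in Klf4 or more are held by 4.59% of them, as many as in Klf2 by 6.78%, as many as in Sox2 by 8.57% and as many as in Utf1 by 29.4%. The members whose names no probe carries have sparser promoters: Zfp42 holds 9 CpG, and Lin28a and Tdgf1 hold 7 each. Of the 10 members 7 were matched in the promoter table, and Sall4, Prdm14 and Tcfap2c were not.

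Methylation is given as the island methylation score (IMS). For each probe the log10 ratio of antibody-bound over input DNA was turned into a Z-score over all probes of its array, and the IMS is the mean Z-score of the island's probes. By the study's thresholds an island with an IMS below 0 is unmethylated and one above 0.75 is methylated. The study's own Z-scores took each probe's melting temperature into account, a step left out here, so its thresholds are applied to a score that is built differently. The score ranks islands within an array, so a difference between arrays is relative to the other islands. A difference in a mixed tissue can reflect more cells with methylation or more methylation in each cell, and these cannot be told apart. Outside the pancreatic tumour lines, the plot of the 12 islands by array shows the 3 islands inside Sall4 above 0.75 on each array, and Prdm14 with the differentiated ES cells above adult tissue, embryos and undifferentiated cells.

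**Figure D1:**
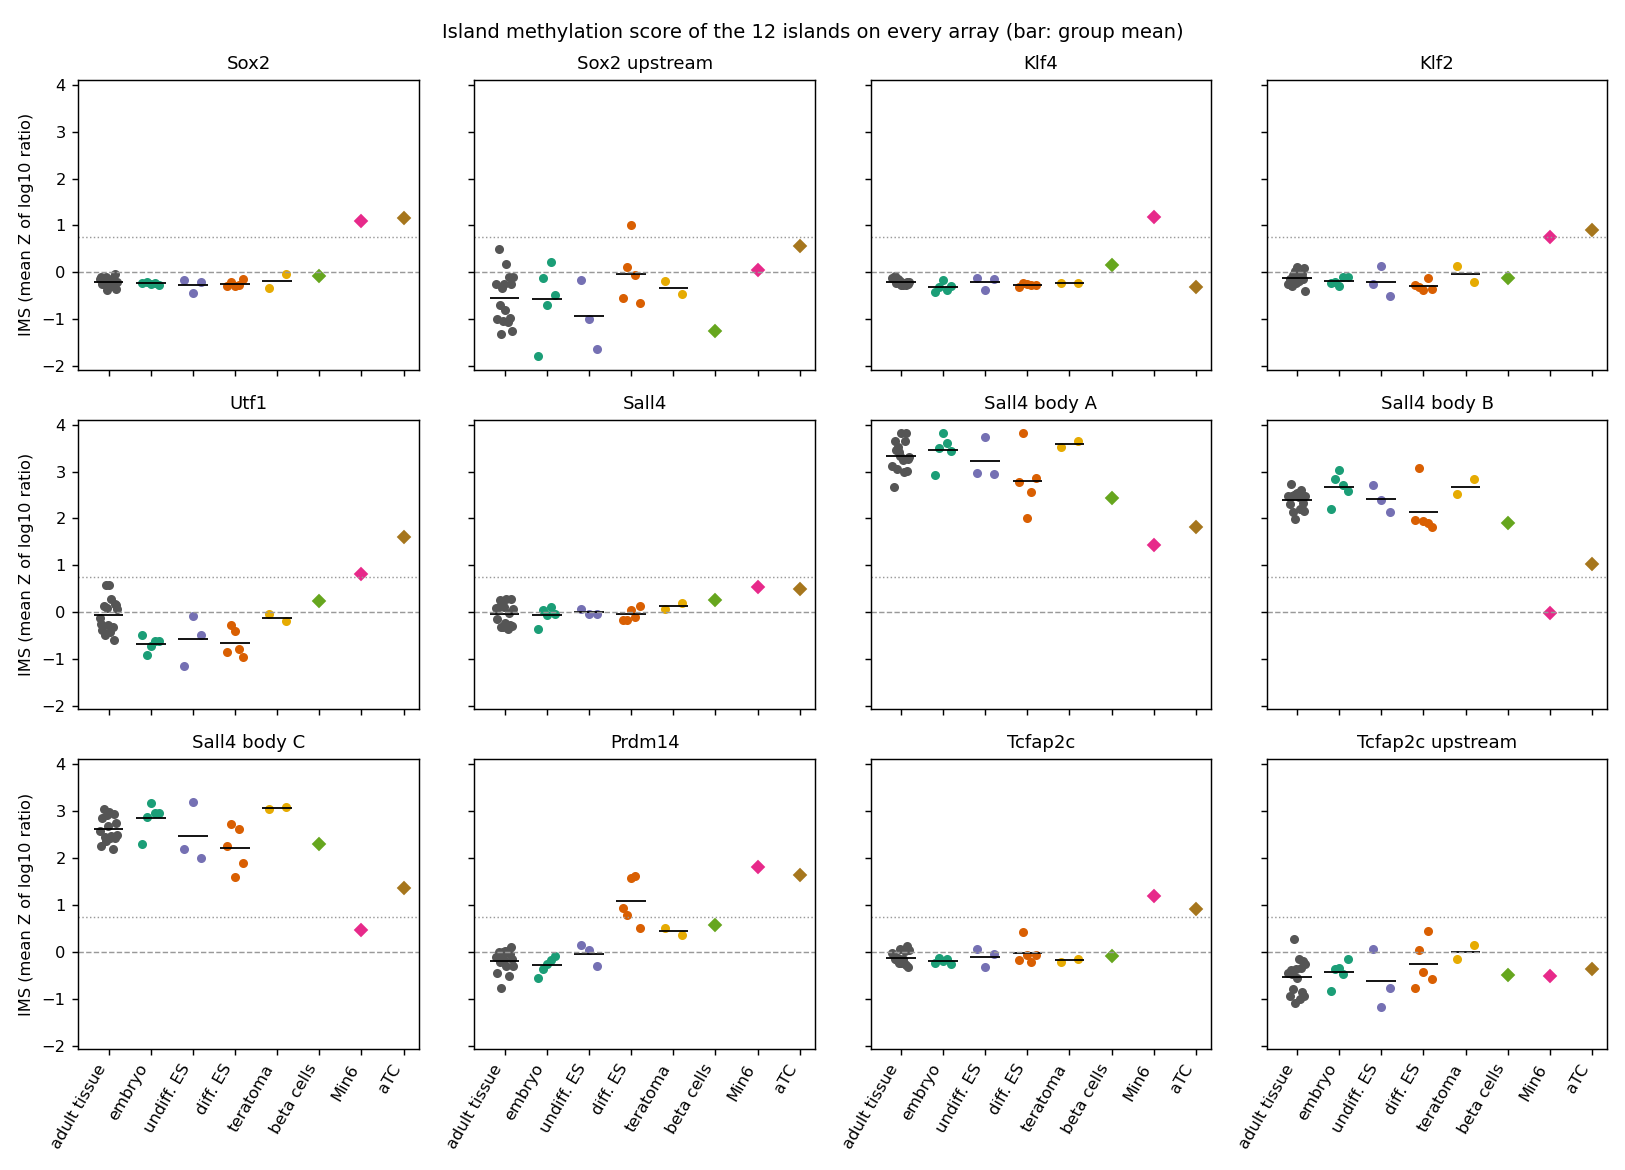
Island methylation score (IMS) of the 12 islands, 1 point per array, grouped along the horizontal axis, with a bar at each group's mean; the dashed line is 0 and the dotted line 0.75. Diamonds are single arrays of beta cells, Min6 and aTC. The differentiated ES cells lie above adult tissue, embryos and undifferentiated cells at Prdm14, and Min6 and aTC lie above adult tissue at Sox2, Klf2, Utf1, Prdm14 and Tcfap2c.

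Sox2, the partner of Oct4 in the core network, has 22 probes at -1232 to 1300 bases relative to its start site (chr3:34840349-34842925 as the files number positions, with no genome build named). The IMS was -0.376, -0.205 and -0.0327 at its lowest, median and highest over the 16 adult arrays, -0.237, -0.208, -0.254, -0.225 and -0.259 in the embryos from the youngest to the oldest, and -0.163 in EB5, -0.450 in J1 and -0.210 in TT2. It was -0.290 in embryoid bodies, -0.211 after retinoic acid, -0.289 and -0.273 in endoderm and -0.137 in mesoderm. The island was below 0 on all arrays of adult tissue, embryos, ES cells and teratomas (-0.338 and -0.0436), and their ranges overlap. Differentiated ES cells differed from adult tissue by -0.0337 (SE 0.0593, 95% interval -0.155 to 0.0876, adjusted p = 0.728). With the filter on dim probes this difference was -0.268 (adjusted p = 0.0274).

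Klf4 and Klf2 are Kruppel-like factors of the naive network, and their islands reach 2329 and 1153 bases into the genes. The IMS of Klf4 was -0.278, -0.208 and -0.0830 over adult arrays (lowest, median, highest), -0.413, -0.307, -0.169, -0.384 and -0.298 in embryos by age and -0.126 in EB5, -0.379 in J1 and -0.143 in TT2. In differentiated cells it was -0.312 in embryoid bodies, -0.223 after retinoic acid, -0.243 and -0.272 in endoderm and -0.275 in mesoderm. All of these lie below 0, within a narrow band in which the groups overlap. Klf2 ranged from -0.405 to 0.123 in adult tissue (median -0.125), from -0.283 to -0.102 in embryos and from -0.380 to -0.122 in differentiated cells, with -0.250 in EB5, 0.140 in J1 and -0.494 in TT2. Differentiated cells differed from adult tissue by -0.0622 (SE 0.0531, adjusted p = 0.429) at Klf4 and by -0.163 (SE 0.0832, adjusted p = 0.161) at Klf2. Neither passed the test.

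Sall4, a spalt-like zinc finger factor of ES cells, carries 4 islands, of which the 1 at its start lies near 0 and the other 3 are methylated. The island at its start (17 probes, from 38 to 2202 bases into the gene) had an IMS of -0.366, 0.0239 and 0.289 in adult tissue (lowest, median, highest), -0.362, 0.0517, -0.0562, 0.0996 and -0.0421 in embryos by age and 0.0607 in EB5, -0.0447 in J1 and -0.0293 in TT2. In differentiated cells it was -0.159 in embryoid bodies, -0.169 after retinoic acid, 0.0487 and -0.101 in endoderm and 0.141 in mesoderm. It stayed near 0 in every group with overlapping ranges, and differentiated cells differed from adult tissue by -0.0106 (SE 0.105, adjusted p = 0.958). The adult spread follows scan day in part, since 6 arrays read on the same day had a mean of -0.297 and the other adult arrays were all higher. Within slides the difference of endoderm 2 from pancreas 1 was -0.204, and that of embryoid bodies from brain 2 was -0.317. The other 3 islands, called body A, B and C here, begin 10969, 14506 and 16693 bases into the gene and hold 5, 3 and 4 probes. In adult tissue their IMS was 2.66, 3.32 and 3.82 for body A, 1.99, 2.46 and 2.74 for body B and 2.19, 2.54 and 3.06 for body C, again as lowest, median and highest. All 16 adult arrays were above 0.75 at each of them, a state shared by 7.37% of all islands.

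The Sall4 body islands were also methylated in the embryos and ES cells. In embryos by age body A was 2.92, 3.51, 3.83, 3.61 and 3.43, body B was 2.19, 2.84, 3.04, 2.72 and 2.58 and body C was 2.31, 2.88, 3.17, 2.96 and 2.97. In the undifferentiated lines body A was 2.97 in EB5, 3.74 in J1 and 2.94 in TT2, body B was 2.72 in EB5, 2.38 in J1 and 2.14 in TT2 and body C was 2.20 in EB5, 3.19 in J1 and 2.00 in TT2. These groups overlap with adult tissue at each island, and the youngest embryo is the lowest of the embryos at all 3. In the differentiated cells body A was 2.77 in embryoid bodies, 3.82 after retinoic acid, 2.00 and 2.57 in endoderm and 2.87 in mesoderm, body B was 1.97 in embryoid bodies, 3.06 after retinoic acid, 1.94 and 1.91 in endoderm and 1.81 in mesoderm, and body C was 2.27 in embryoid bodies, 2.73 after retinoic acid, 1.61 and 2.62 in endoderm and 1.89 in mesoderm. All of these are far above 0.75. The retinoic acid array was the highest differentiated array at each of the 3 islands, and at body B the other 4 lay below all 16 adult arrays. Differentiated cells differed from adult tissue by -0.527 (SE 0.197, adjusted p = 0.0527) at body A, -0.244 (SE 0.149, adjusted p = 0.249) at body B and -0.392 (SE 0.177, adjusted p = 0.111) at body C, and none passed. Without the retinoic acid array all 3 passed, with differences of -0.780 (adjusted p = 0.00200) at body A, -0.475 (adjusted p = 0.00490) at body B and -0.520 (adjusted p = 0.0408) at body C. Body A also passed without the embryo of 8.5 days (adjusted p = 0.0471) or without J1 (adjusted p = 0.0437), which enter the same limma fit. With slide or scan day as a block the difference at body B was -0.688 (adjusted p = 0.0136) or -0.656 (adjusted p = 0.00266). Both rest on endoderm 2 and embryoid bodies alone among the differentiated arrays.

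Utf1, a chromatin factor of ES cells, has 11 probes at -106 to 1154 bases relative to its start site (chr7:139795047-139796355 in the files' numbering). The IMS in adult tissue was -0.598, -0.0244 and 0.571 (lowest, median, highest), with arrays of the same tissue far apart: 0.571 and -0.420 in liver, -0.479 and 0.569 in brain. It was -0.488, -0.913, -0.721, -0.614 and -0.616 in embryos by age, -1.14 in EB5, -0.0837 in J1 and -0.497 in TT2, and -0.850 in embryoid bodies, -0.265 after retinoic acid, -0.396 and -0.791 in endoderm and -0.951 in mesoderm. All 13 of these arrays lie below the adult median and 8 below the lowest adult array, and the ranges overlap. Differentiated cells were lower than adult tissue by limma, with a difference of -0.600 (SE 0.170, 95% interval -0.947 to -0.253, adjusted p = 0.0100). Embryos were lower too, by -0.620 (SE 0.170, 95% interval -0.967 to -0.273, adjusted p = 0.0187). Since embryos and adult tissue share no slide, day or software release, this difference cannot be separated from batch.

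In the undifferentiated lines the difference of Utf1 from adult tissue was -0.524 (SE 0.208, 95% interval -0.950 to -0.0982, adjusted p = 0.188), and without the J1 array it was -0.770 (adjusted p = 0.0395). Along the island the adult arrays are unmethylated before and just after the start, and rise further in. The mean Z-score beyond 500 bases into the gene (6 probes) was 0.459 in adult tissue, between -0.353 and 1.38, against -0.598 in embryos, -0.391 in undifferentiated and -0.407 in differentiated cells. In the first 500 bases (4 probes) these means were -0.607, -0.655, -0.666 and -0.851. The gap between groups thus lies mostly in the inner stretch of the gene. With slide or scan day as a block the fall in differentiated cells did not pass, with differences from adult tissue of -0.911 (adjusted p = 0.118) and -0.744 (adjusted p = 0.123). On 1 slide the difference of endoderm 2 from pancreas 1 was -0.402, and on another that of embryoid bodies from brain 2 was -1.42. The value with slide as a block rests on these pairs alone. With slide, scan day or software as a block the embryo difference was -1.27, -0.518 and -0.809 and did not pass. Among the embryos these values rest on that of 8.5 days alone. The slide value runs through EB5 and pancreas 2 on 1 slide and TT2 and that embryo on another. The embryo difference also did not pass without the embryo of 9.5 or 10.5 days, where it was -0.559 (adjusted p = 0.0815) and -0.607 (adjusted p = 0.0527).

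Prdm14, a regulator of naive pluripotency and of germ cell fate, is where the differentiated ES cells stand apart. Its island holds 4 probes, at -1058 to -674 bases relative to the start site (chr1:13111554-13111987 in the files' numbering). The array's annotation marks all 4 as unknown, not as promoter or inside a gene. The IMS was -0.767, -0.131 and 0.101 in adult tissue (lowest, median, highest; mean -0.185, SD 0.233, n = 16), -0.552, -0.354, -0.262, -0.174 and -0.0925 in embryos by age and 0.156 in EB5, 0.0402 in J1 and -0.305 in TT2. In the differentiated cells it was 0.944 in embryoid bodies, 0.778 after retinoic acid, 1.57 and 1.61 in endoderm and 0.509 in mesoderm (mean 1.08, SD 0.488, n = 5). Every differentiated array lies above every adult, embryo and undifferentiated array, and 4 of the 5 are above the methylated threshold. The teratomas lie between these groups at 0.517 and 0.361, above the adult range and below 4 of the differentiated arrays.

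Differentiated cells were higher at Prdm14 than adult tissue by 1.27 (SE 0.141, 95% interval 0.978 to 1.56, adjusted p = 1.11e-07), than undifferentiated cells by 1.12 (SE 0.201, 95% interval 0.707 to 1.53, adjusted p = 0.00129) and than embryos by 1.37 (SE 0.174, 95% interval 1.01 to 1.72, adjusted p = 2.28e-06), all by limma over all islands. These 3 comparisons share the differentiated arrays. Without the J1 array the difference from undifferentiated cells was 1.16 (adjusted p = 0.00446). The undifferentiated lines differed from adult tissue by 0.149 (SE 0.173, adjusted p = 0.712), without J1 by 0.111 (adjusted p = 0.806), and the embryos by -0.102 (SE 0.141, adjusted p = 0.751), and neither passed. The teratomas differed from adult tissue by 0.624 (SE 0.203, 95% interval 0.209 to 1.04, adjusted p = 0.368), and did not pass, although the ranges do not overlap, as at 1.78% of all islands.

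The difference of Prdm14 was also present within batches. On the slide that holds both, endoderm 2 exceeded pancreas 1 by 1.62, and on another, embryoid bodies exceeded brain 2 by 1.02. With slide as a block the difference from adult tissue was 1.32 (adjusted p = 0.00364), which rests on these same pairs. With scan day it was 1.32 (adjusted p = 0.000199), from the same differentiated arrays, and with software 1.23 (adjusted p = 1.82e-06). The difference from embryos did not pass with slide or scan day as a block. It was then 1.19 and 1.31, resting on the embryo of 8.5 days. Nor did that from undifferentiated cells pass with slide as a block, at 0.944, resting on EB5. The difference from undifferentiated cells was 0.621 (adjusted p = 0.0579) with the normexp background correction and 1.12 (adjusted p = 0.129) when limma was fitted to only the arrays of these groups. By the methods' t-test its adjusted p was 0.289.

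Single probes of the Prdm14 island differ in signal. The probe nearest to the start site, at -674 bases, had an input well above background on all 34 arrays. Its Z-score was 0.896 in embryoid bodies, 0.662 after retinoic acid, 1.28 and 1.60 in endoderm and 0.978 in mesoderm. It lay between -1.004 and -0.301 in adult tissue, between -0.618 and -0.280 in embryos and at -0.578, -0.611 and -0.580 in EB5, J1 and TT2. At this probe the differentiated cells are above 0 and the other 3 groups below it, as are the teratomas at -0.326 and -0.0444 and the beta cells at -0.285. Min6 was 1.59 and aTC was 1.77 there. In the authors' processed table the same probe lay between 0.340 and 1.61 in the differentiated cells and between -1.11 and -0.305 over the 13 adult arrays with a value, while the J1 column gave 1.63.

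At the other 3 Prdm14 probes the differentiated cells overlap with adult tissue. They lie above the embryos at -796 bases (lowest 0.636, against a highest of -0.190). They also lie above the undifferentiated lines at -866 bases, where the highest of those was 0.106. In the other comparisons with embryos and undifferentiated lines the ranges overlap. The probe at -796 bases ranged from -1.39 to 1.49 in adult tissue and reached 1.40 in an undifferentiated line. The probe at -866 bases lay between 0.429 and 1.57 in differentiated cells and up to 0.749 in adult tissue. At -1058 bases the input was well above background on 7 of 16 adult arrays and 2 of 5 differentiated arrays. The teratomas' positive island scores come from these 3 probes, since both teratomas are below 0 at the probe nearest to the start site. Their input was well above background on 0 of 2 arrays at -796 and at -1058 bases and on 1 of 2 at -866 bases, so these scores rest on weak signal.

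**Figure D2:**
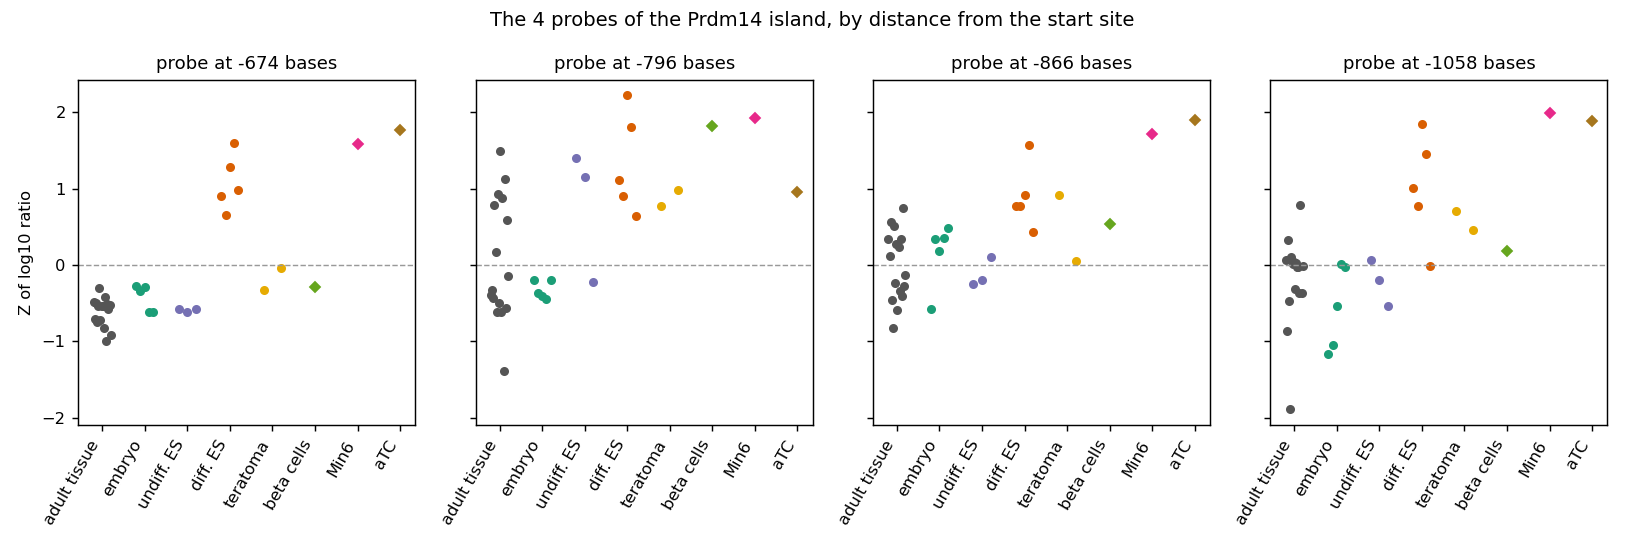
Z-score of the log10 ratio at each of the 4 probes of the Prdm14 island, 1 point per array, with the groups along the horizontal axis and 1 panel per probe by its distance in bases from the start site. At -674 bases the 5 differentiated ES cell arrays are above 0 and the adult, embryo and undifferentiated arrays below it.

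Tcfap2c, a transcription factor of germ cells and trophoblast, has an island of 18 probes from 63 to 2248 bases into the gene. Its IMS was -0.317, -0.153 and 0.119 in adult tissue (lowest, median, highest), -0.232, -0.119, -0.185, -0.143 and -0.256 in embryos by age and 0.0624 in EB5, -0.311 in J1 and -0.0451 in TT2. In the differentiated cells it was -0.166 in embryoid bodies, 0.416 after retinoic acid, -0.0699 and -0.213 in endoderm and -0.0576 in mesoderm. These overlap around 0, with the retinoic acid array the highest of them. Differentiated cells differed from adult tissue by 0.104 (SE 0.0842, adjusted p = 0.403).

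Of the 12 islands 3 lie wholly before start sites, Prdm14 and 2 others: 5 probes at -8086 to -7662 bases from the start of Sox2 and 3 probes at -893 to -620 bases from that of Tcfap2c. The 2 others are the lowest of the 12 in input, with a median of 2.52 and 2.69 times background. They are followed by the Sall4 start island with 3.00 and Prdm14 with 3.42, and Utf1 is the highest with 6.58. The upstream Sox2 island varied widely, from -1.32 to 0.497 in adult tissue and from -0.657 to 1.01 in differentiated cells. It was -0.157 in EB5, -1.01 in J1 and -1.64 in TT2. Differentiated cells differed from adult tissue by 0.518 (SE 0.299, adjusted p = 0.219) there and by 0.274 (SE 0.199, adjusted p = 0.342) at the upstream Tcfap2c island. Neither difference passed.

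**Figure D3:**
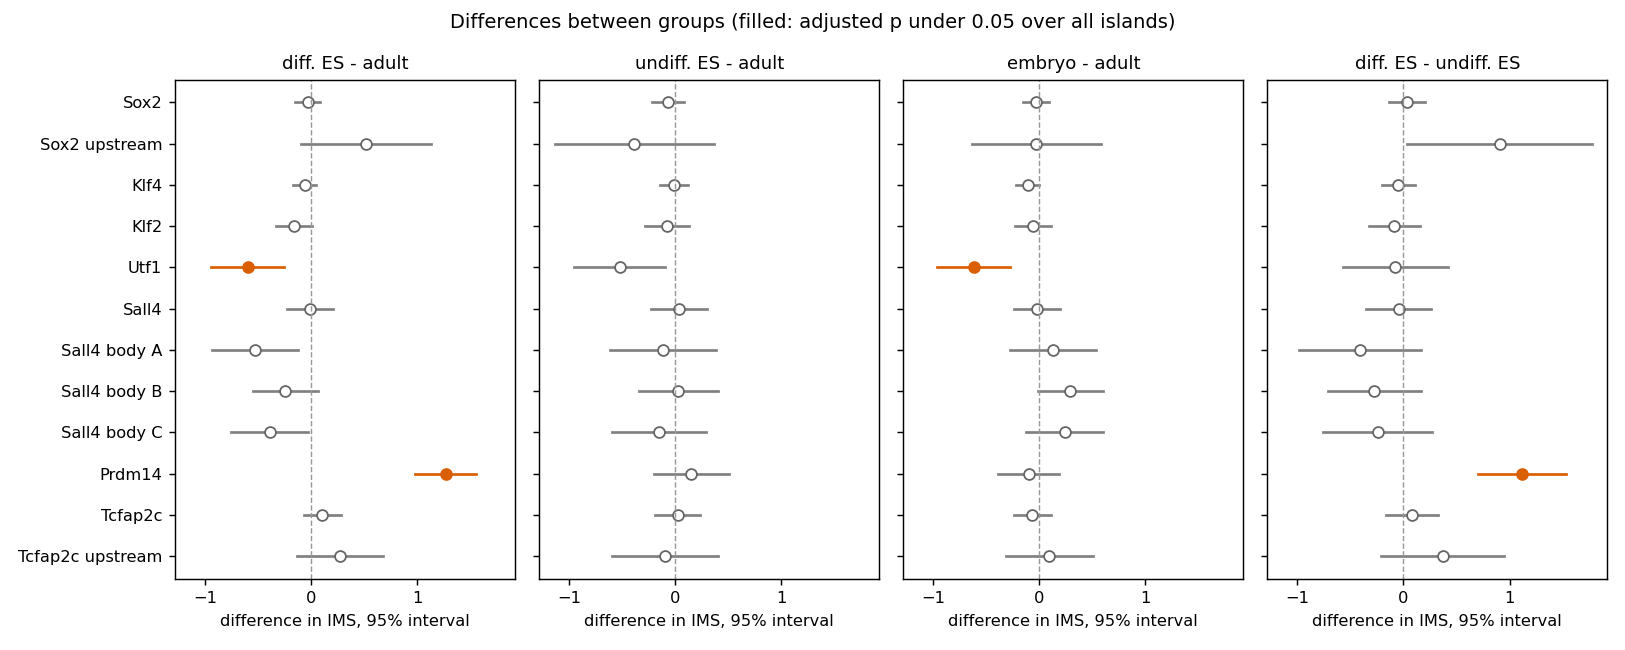
Difference in IMS with its 95% interval for each of the 12 islands in 4 comparisons by limma; filled points have an adjusted p under 0.05 over all 13614 islands. Prdm14 is higher in differentiated ES cells than in adult tissue and undifferentiated ES cells, and Utf1 is lower than adult tissue in differentiated ES cells and embryos.

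Read over all 12 islands, differentiated ES cells against adult tissue gave 2 of 12 member islands with an adjusted p under 0.05, Prdm14 higher and Utf1 lower, where 23.2% of all 13614 islands were called, 14.4% higher and 8.73% lower. The median difference of the 12 was -0.0479, against -0.0100 over all islands. Without the retinoic acid array 5 of 12 member islands were called, beside 3375 of the 13614. The 3 added were all of 1 gene, Sall4 body A, B and C, and the difference between these shares was not tested. Ranges that do not overlap, with the differentiated cells higher, were found at 1 member island, Prdm14, and at 2.51% of all islands.

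Against undifferentiated cells 1 of 12 member islands was called, Prdm14, which was higher, beside 5.43% of all islands, 3.51% higher. Ranges did not overlap there at Prdm14 alone among islands with the differentiated cells higher, beside 3.96% of all islands. Against embryos 3 of 12 were called, Prdm14 higher and Sall4 body B and C lower, beside 21.1% of all islands, 11.8% higher and 9.29% lower, and the range of Prdm14 lay above that of the embryos, as at 8.67% of all islands.

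The calls at Sall4 body B and C against embryos, -0.535 (SE 0.184, adjusted p = 0.0367) and -0.632 (SE 0.218, adjusted p = 0.0376), rest on the arrays and settings chosen. Neither passed with normexp, slide or scan day as a block, only these groups in limma or the methods' t-test. With software as a block the differences turned to 0.312 and 0.0141. With slide as a block body C turned to 0.393. Fits with these blocks rest on the embryo of 8.5 days, the lowest embryo at both islands. Both were lost without the embryo of 9.5, 10.5 or 11.5 days, without embryoid bodies, without endoderm 1 or without mesoderm, and the count was then 1. Body B was also lost without endoderm 2, and body C without the embryo of 12.5 days. Body A passed against embryos without the retinoic acid array, at -0.907 (adjusted p = 0.00308), without the embryo of 8.5 days, at -0.787 (adjusted p = 0.0268), or without J1, at -0.654 (adjusted p = 0.0454).

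Undifferentiated ES cells against adult tissue asks whether these islands differ from adult tissue before differentiation. By limma 0 of 12 member islands were called, beside 2.3% of all islands. An unadjusted p under 0.05 was found at 1 of 12 and at 2275 of the 13614. Without J1 Utf1 was called, and the count over all islands rose from 313 to 1151. Without EB5 or TT2 limma called 0, with 1444 and 1146 at an unadjusted p under 0.05. Embryos against adult tissue gave 1 of 12, Utf1, which was lower, beside 8.64% of all islands, 3.47% lower. That count over all islands, 1176, fell to 3 with slide and 7 with software as a block. Undifferentiated cells against embryos gave 0 of 12 by limma, beside 3.03% of all islands, with 0 of 12 and 2166 of the 13614 at an unadjusted p under 0.05.

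Teratomas, in which ES cells differentiate inside an animal, gave 0 of 12 against adult tissue by limma, beside 0.191% of all islands. An unadjusted p under 0.05 was found at 1 of 12 and at 1061 of the 13614. A moderated F test over the 8 adult tissues gave 0 of 12, beside 0.0808% of all islands, with 0 of 12 and 538 of the 13614 at an unadjusted p under 0.05. Whether the change on differentiation differs between derivatives of EB5 and TT2 was tested on 7 arrays by limma. Each line has 1 undifferentiated array, which is assumed to vary like the others, and the line of the retinoic acid array differs between labels and methods. By the labels EB5 gave only endoderm and mesoderm, and TT2 only embryoid bodies and retinoic acid cells. Line and protocol therefore cannot be told apart. The difference was called at 0 of 12 member islands and 0% of all islands, with 0 members and 415 islands at an unadjusted p under 0.05. At Prdm14 the difference between the changes was -0.0931 (SE 0.613). With 1 undifferentiated array per line, the absence of calls does not show that the lines change alike.

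The pancreatic tumour lines, outside the comparisons and without replicates, scored above 0.75 at islands where no adult or embryo array did. Both lines lie on the same slide and share no slide, day or software release with adult tissue. Their differences from adult tissue thus cannot be separated from batch. Beta cells were read on the same day as the lines with the same software release. Min6, an insulin-producing line, was above 0.75 and above every adult and embryo array at 6 of 12 member islands, Sox2, Klf4, Klf2, Utf1, Prdm14 and Tcfap2c, beside 9.17% of all islands. The glucagon-producing line aTC was so at 5 of 12, the same genes without Klf4, beside 11.6%. Of the 9 member islands with an adult mean below 0, which 71% of all islands have, 6 were above 0.75 in Min6 and 5 in aTC, beside 7.64% and 10.8% of such islands. Beta cells met the first condition at 0 of 12, beside 2.26% of all islands. Sox2 was -0.0855 in beta cells, 1.11 in Min6 and 1.17 in aTC, and Utf1 was 0.236 in beta cells, 0.822 in Min6 and 1.61 in aTC. Klf4 was 0.158 in beta cells, 1.18 in Min6 and -0.323 in aTC, Klf2 was -0.123 in beta cells, 0.757 in Min6 and 0.902 in aTC, and Prdm14 was 0.565 in beta cells, 1.81 in Min6 and 1.63 in aTC. Tcfap2c was -0.0875 in beta cells, 1.20 in Min6 and 0.912 in aTC. The lines thus part at Klf4, while beta cells stay below 0.75 at these islands.

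Where the higher methylation of the lines sits differs by gene. At Klf4 the mean Z-score of Min6 was -0.0228 before the start, -0.181 in the first 500 bases and 1.81 beyond them (16 probes). At Klf2 it was -0.231, 0.638 and 1.94 in Min6, and -0.0790, 0.783 and 2.08 in aTC. At Sox2 it was 0.723, 1.20 and 1.82 in Min6, so the stretch before the start was raised there as well. At Utf1 Min6 and aTC were 0.535 and 1.34 before the start (1 probe, adult mean -0.884) and 0.883 and 1.52 in the first 500 bases (adult mean -0.607). Further in they were 0.8295 and 1.71, against an adult mean of 0.459 (highest 1.38) and 0.951 in beta cells. Min6 thus lay within the adult range in that stretch. At this gene the gap from the adult mean was widest at and before the start. At Tcfap2c Min6 was 1.16 in the first 500 bases and 1.21 beyond them.

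The Sall4 start island was 0.546 in Min6 and 0.496 in aTC, under 0.75 but above every adult and embryo array (highest 0.289). Sall4 differed the other way in its body: body A, B and C were 1.43, -0.0263 and 0.459 in Min6 and 1.81, 1.03 and 1.36 in aTC. Both lines were below every adult array at all 3, as were 43.2% of islands with an adult mean above 0.75 in Min6 and 48.7% in aTC. Beta cells were below every adult array at 2 of the 3, body A with 2.44 and body B with 1.90, beside 28.4% of such islands, and body C was 2.29. The segments and these islands were chosen after their values were seen.

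**Figure D4:**
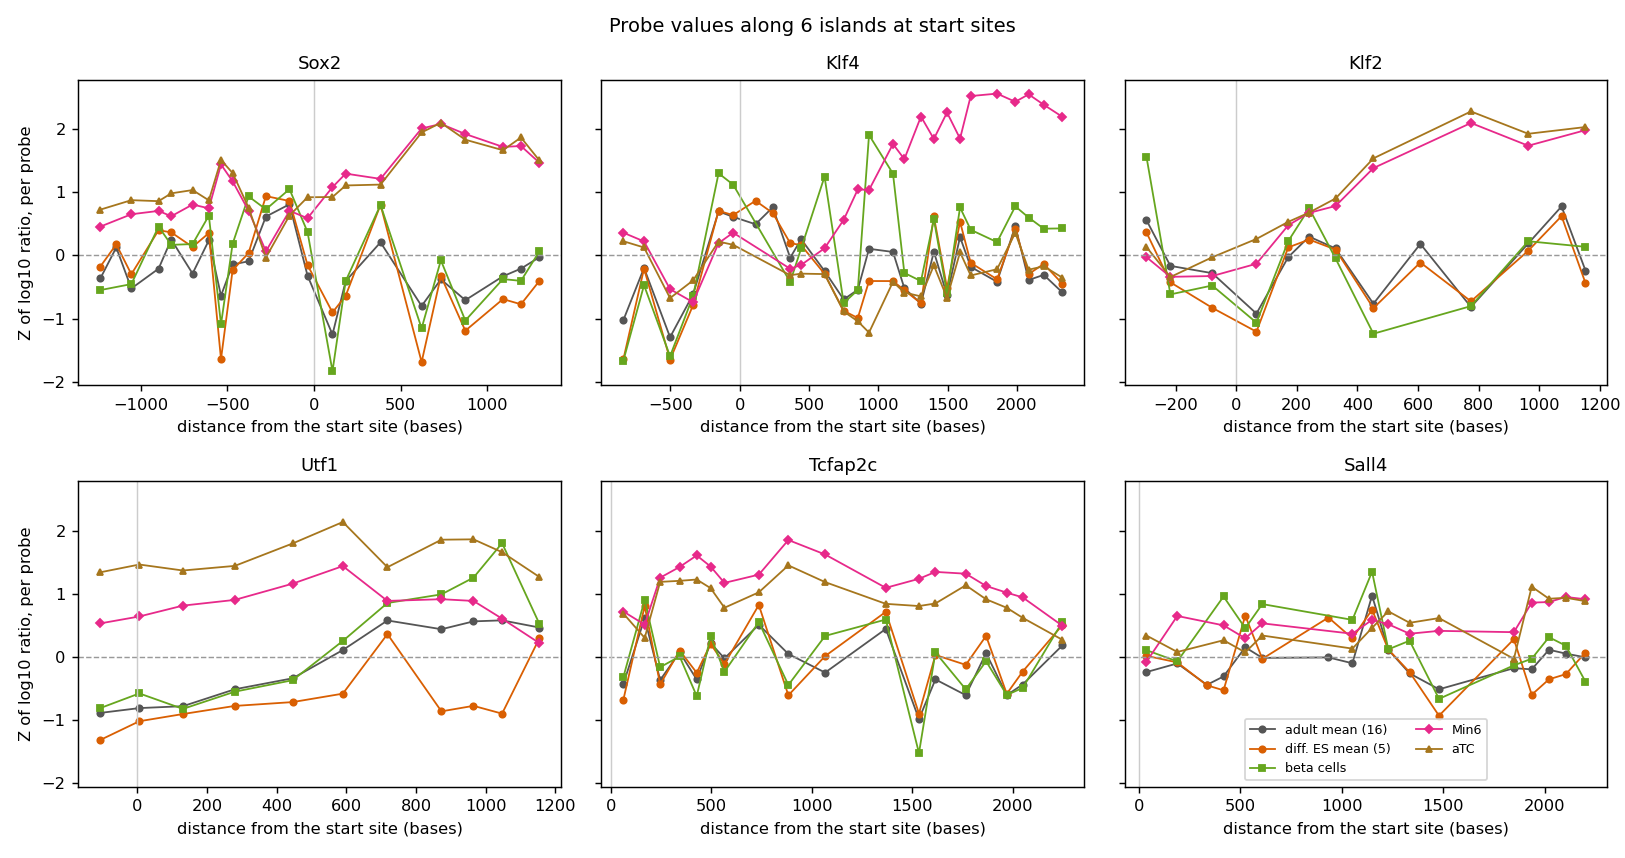
Z-score of the log10 ratio at each probe along 6 islands, by distance from the start site in bases, for the means of 16 adult and 5 differentiated ES cell arrays and for the single arrays of beta cells, Min6 and aTC. Against the adult mean Min6 is raised further inside Klf4, and both tumour lines inside Klf2 and at most probes of Sox2 and Tcfap2c. Both lines lie below the adult mean at -277 and -141 bases of Sox2 and at 169 bases of Tcfap2c. At Utf1 aTC is raised throughout. Min6 is raised there at and before the start, but at 1154 bases it is 0.223 against an adult mean of 0.470.

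A wider list of 55 pluripotency network genes gives the setting. Of these 36 have a scored island, 56 islands in all, and Pou5f1 and Nanog have none. In differentiated ES cells against adult tissue 3 genes were higher and 6 lower, and 9 of 56 islands were called, beside 23.2% of all islands. Each of these genes has 2 or 3 scored islands and was called at only a single island. The values given are of that island, and the gene's other islands were not called. Higher were Otx2, a factor of the primed state, by 0.768 (SE 0.156, adjusted p = 0.000497), Foxd3, a pluripotency factor, by 0.667 (SE 0.135, adjusted p = 0.000459), and Cbx7, a polycomb subunit, by 0.305 (SE 0.106, adjusted p = 0.0368). Foxd3 and Otx2 were also the 2 genes higher than in undifferentiated cells, by 0.908 (SE 0.192, adjusted p = 0.00504) and 1.01 (SE 0.222, adjusted p = 0.00707), and without J1 by 0.764 (adjusted p = 0.0434) and 0.913 (adjusted p = 0.0413). Neither passed against undifferentiated cells with scan day as a block, at 0.597 (adjusted p = 0.234) and 0.537 (adjusted p = 0.210), nor with slide as a block, normexp, only these arrays in limma or the methods' t-test. They were 2 of 56 islands, beside 5.43% of all islands. At Foxd3 the IMS was -0.196, -0.695 and -0.334 in EB5, J1 and TT2. It was 0.247, 0.329, 0.879, 0.837 and 0.207 in embryoid bodies, retinoic acid cells, both endoderm arrays and mesoderm. The differentiated cells thus lay above the undifferentiated lines without overlap, as at 3.96% of all islands. With adult tissue the ranges overlap at both Foxd3, where colon 1 was 0.390, and Otx2. Against embryos 6 genes were higher and 5 lower in differentiated cells, 11 of 56 islands beside 21.1% of all islands. In embryos against adult tissue 4 genes were lower and none higher, 5 of 56 islands beside 8.64%, and in undifferentiated cells 2 genes, 2 of 56 islands beside 2.3%. With scan day as a block the Foxd3 and Otx2 differences from adult tissue were 0.533 (adjusted p = 0.0814) and 0.496 (adjusted p = 0.0603).

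Lower than in adult tissue were Jarid2, a cofactor of the polycomb complex PRC2, by -0.354 (SE 0.0659, adjusted p = 0.000177), Sall1, a relative of Sall4, by -0.364 (SE 0.0897, adjusted p = 0.00337), Gbx2 by -0.397 (SE 0.123, adjusted p = 0.0186), Epcam, an adhesion molecule of ES cells that the files name Tacstd1, by -0.381 (SE 0.139, adjusted p = 0.0471), and the naive factors Tbx3 by -1.21 (SE 0.427, adjusted p = 0.0393) and Esrrb by -0.803 (SE 0.257, adjusted p = 0.0224). The Esrrb island lies inside the gene and was methylated in adult tissue (mean 2.50) and embryos (mean 2.60). Among undifferentiated lines it was -0.282 in EB5 and -0.0198 in TT2 but 2.48 in J1, and it lay between 1.18 and 1.93 in the differentiated cells. EB5 and TT2 are thus unmethylated there. The J1 array is in the adult range, but it may hold another sample, which was not tested, so this is not read as a difference between lines. Undifferentiated cells differed from adult tissue by -1.77 (SE 0.315, adjusted p = 0.00515), and without J1 by -2.65 (adjusted p = 2.66e-09). Without EB5 or TT2 the difference did not pass, at -1.27 (adjusted p = 0.308) or -1.40 (adjusted p = 0.224). Nor did it with scan day as a block, at -1.06 (adjusted p = 0.978), without division by the SD, with an adjusted p of 0.103, by the methods' t-test, with 0.0689, or on the arrays of the software release that read all adult arrays, at -1.40 (adjusted p = 0.329).

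Several of these network calls rest on single arrays or on the settings. Of the settings run, Epcam passed in 10 of 26, Cbx7 in 17 of 26 and Tbx3 in 17 of 28. Esrrb passed in 21 of 27 and Gbx2 in 22 of 28. Normexp ended the calls of Epcam, Gbx2 and Tbx3, and the methods' t-test those of Epcam, Tbx3 and Cbx7. Tbx3 did not pass when any 1 of the 5 differentiated arrays was left out, with differences from -1.31 to -0.999. Esrrb did not pass without the retinoic acid array, at -0.675 (adjusted p = 0.0769), and Gbx2 not without embryoid bodies, at -0.345 (adjusted p = 0.0740). Cbx7 was lost without embryoid bodies, retinoic acid cells or endoderm 2, where it was lowest at 0.246 (adjusted p = 0.145). Epcam was lost without embryoid bodies, retinoic acid cells, endoderm 2 or mesoderm, where it was weakest at -0.316 (adjusted p = 0.155), and without the embryo of 9.5, 10.5, 11.5 or 12.5 days. Jarid2, Sall1, Foxd3 and Otx2 passed without each single array. Of the 9 calls against adult tissue, Foxd3 alone passed with slide as a block and Sall1 alone with scan day as a block, and Cbx7, Esrrb and Tbx3 did not pass with software as a block. With slide as a block Jarid2, Sall1 and Otx2 were -0.238 (adjusted p = 0.121), -0.457 (adjusted p = 0.0720) and 0.515 (adjusted p = 0.0808). The differences of Foxd3 and Otx2 from undifferentiated cells were then 0.256 and 0.385, resting on EB5 alone among the undifferentiated lines.

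The islands most like Prdm14 over the 34 arrays, by Pearson's r of the IMS, were those of Nhlh2 (r = 0.890), Nags (r = 0.878) and Nkx6-2 (r = 0.876). Over the 32 arrays other than Min6 and aTC r was 0.832, 0.815 and 0.817. The mean IMS at Nhlh2 was -0.413 in adult tissue, -0.340 in undifferentiated and 0.914 in differentiated cells. The upstream Sox2 island, which varied most after Prdm14, was most like Foxb1 (r = 0.815), Litaf (r = 0.781) and Epha4 (r = 0.767). These values describe likeness over arrays that share groups and batches.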

How the data were processed

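Agilent CpG island arrays of 34 mouse samples were used, with antibody-bound DNA in Cy5 and input DNA in Cy3. The authors' scanner files hold, per probe and channel, the intensity and its background, and the log10 ratio of bound over input, made by Feature Extraction 10.5.1.1, 10.7.3.1, 10.9.1.1 or 9.5.3.1 after background subtraction and dye normalization. The authors' deposited table holds a score per probe, a Z-score that the study's methods adjust for each probe's melting temperature, a step left out here. Its column medians run from -0.315 to -0.0134.

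The log10 ratios of each array were scaled to Z-scores over its 88737 or 97651 probes, without control spots and spots marked as outliers, and averaged over islands (gaps of at most 500 bases, at least 3 probes); 492 probes have no position and lie in no island. One model of adult, embryo, undifferentiated and differentiated arrays was fitted to 13614 islands with limma 3.58.1 in R 4.3.3, with Benjamini-Hochberg adjustment over all islands and a threshold of 0.05. The remaining steps ran in Python 3.11.15 with scipy 1.17.1, pandas 2.3.3 and numpy 2.4.6. The fit was tested on simulated data. The median input was 3.07 to 7.34 times background.

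The members and lists were chosen with earlier results of these data known. Every member island is named, and the 3 most alike islands for the 2 most variable member islands. Up to 10 network genes are named, by the largest absolute difference first. They are those called in differentiated ES cells against adult tissue or against undifferentiated ES cells. Alternatives were run for standardisation, background, source, dim probes, island summary, probe minimum, gap, sex chromosomes, batches, arrays in the fit, the methods' t-test and each array left out. The bisulfite, human and chromatin data of the study are not used here.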

Additional observations from a re-analysis of the deposited data

Results flagged for a closer look

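The retinoic acid array lay far from the other 4 differentiated arrays at Sall4 body B, with an IMS of 3.06, and at Tcfap2c, with 0.416. Each gap, divided by the group's range, passed Dixon's critical value. Of 24 groups tested 2 did so, and chance gives about 1 in 20.

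The single arrays of the pancreatic tumour lines, which enter no comparison, were above 0.75 and above every adult and embryo array at several member islands. In Min6 the IMS was 1.11 at Sox2, 1.18 at Klf4, 0.757 at Klf2, 0.822 at Utf1, 1.81 at Prdm14 and 1.20 at Tcfap2c. In aTC it was 1.17 at Sox2, 0.902 at Klf2, 1.61 at Utf1, 1.63 at Prdm14 and 0.912 at Tcfap2c. There is 1 array of each line, so these values have no replicate check.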

How the results depend on the processing

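The count of islands in differentiated ES cells against adult tissue, 3154, stayed within 1.5 times except with normexp (1725), the deposited table (1313 of 5891 tested), at least 5 probes (1872 of 8932), the filter on dim inputs (1997 of 8755) and slide as a block (2057). Fewer islands were tested in 3 of these settings here and below, so a lower count there need not be a lower share. Member islands called there, 2, were 1 with the deposited table or at least 5 probes, and 4 on the arrays of the software version that read all adult arrays; leaving out single arrays gave 2472 to 3375 islands and 2 to 5 members. Undifferentiated ES cells against adult tissue, 313, gave 0 without division by the SD, with scan day, by the methods' t-test and on that software version, 6 with normexp, 1560 with the deposited table (1 member, Sall4 body C), 183 with at least 5 probes, 82 with software and 94 with only 2 groups, and 0 to 1151 islands and 0 to 1 members without single arrays (0 without EB5 or TT2, 1151 without J1). Embryos against adult tissue, 1176, gave 105 with normexp, 475 with the deposited table, 750 with the dim filter, 3 with slide, 0 with scan day and 7 with software, and 689 to 1336 without single arrays, the lowest without the embryo of 9.5 days. Its 1 member call was 0 with normexp and with each of the 3 blocks, 2 by the methods' t-test, and 0 to 1 without single arrays. Differentiated against undifferentiated ES cells, 739, gave 228 without division by the SD, 80 with normexp, 1359 with the deposited table, 432 with at least 5 probes, 184 with slide, 4 with only 2 groups and 0 by the methods' t-test, and 443 to 1365 without single arrays, with 443 without EB5, 488 without J1, 474 without endoderm 2 and 1365 without the retinoic acid array. Its 1 member call was 0 with normexp, the deposited table, at least 5 probes, the dim filter, slide, 2 groups and the methods' t-test, and 2 with scan day and on that software version. Differentiated ES cells against embryos, 2871, gave 830 with normexp, 1159 with the deposited table, 1728 with at least 5 probes, 94 with slide, 365 with scan day and 192 with software, and 2238 to 3262 without single arrays. Its 3 member calls were 1 with normexp, the dim filter, software, 2 groups and the methods' t-test, 0 with the deposited table, at least 5 probes, slide and scan day, and 1 to 4 without single arrays. Undifferentiated ES cells against embryos, 413, gave 223 without division by the SD, 21 with normexp, 957 with the deposited table (1 member, Sall4 body C), 204 with the dim filter, 129 with slide, 26 with scan day, 14 with software and 74 by the methods' t-test, and 21 to 806 without single arrays, with 21 without EB5, 806 without J1, 73 without TT2, and 177, 149 and 203 without the embryo of 9.5, 10.5 and 11.5 days. Teratomas against adult tissue, 26, gave 15 with software, and 11 and 6 without the arrays numbered 1 and 2. The F test over adult tissues, 11, gave 1 with normexp, 7 with at least 5 probes and 2 to 14 without single arrays, with 2 without colon 1, 6 without colon 2, pancreas 2 or muscle 1, and 7 without pancreas 1, kidney 1, liver 1 or muscle 2. The methods' t-test gave 4508, 2206, 3358, 1793, 4440 and 2286 islands at their unadjusted threshold in the 6 comparisons in the order above, and 2866, 0, 1409, 0, 2070 and 74 after Benjamini-Hochberg. Signs turned at Tbx3 in embryos against adult tissue (0.0609 with scan day), and in differentiated ES cells against embryos at Sall4 body B (0.312 with software), Sall4 body C (0.393 with slide, 0.0141 with software) and Cbx7 (-0.0325 with slide). Among the embryos these fits rest on that of 8.5 days alone, and the cause was not tested. Prdm14 has 4 probes and is not scored with at least 5 probes, in the deposited table or under the dim filter. In differentiated ES cells against adult tissue it was called in all 25 settings that score it, with differences from 0.650 to 1.45. Normexp on median signals, probes on every array and that software version alone were chosen after seeing the data; normexp on mean signals was not run, since some files hold none. The labels tie replicate numbers to no shared animal or batch, though the arrays numbered 1 of 6 tissues were read on 1 day, so the number follows scan day in part. Correlations of same-numbered deviations between tissues ran from -0.253 to 0.629 with 14 of 28 over 0.1, so the numbers were not taken as pairs. With the replicate block endoderm against adult tissue gave 2233 islands and 3 members, teratomas 54 and 0, and the F test 8 and 0. The block changed no member call.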
